A study of Mus musculus with 68 samples.

Results

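The lysyl oxidase family of the mouse has 5 genes, Lox, Loxl1, Loxl2, Loxl3 and Loxl4, and all 5 were found among the 23420 gene symbols counted in growth plate cartilage. The genes were taken by family name. The family was chosen by the high Loxl4 level in hypertrophic chondrocytes of these libraries, so every difference between the hypertrophic zone and another zone is given for the 5 genes as a description, with no test. Differences between the resting and the proliferative zone and between the ages were not used in that choice and were tested.

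Lysyl oxidases are secreted enzymes that need copper. They oxidise lysines and hydroxylysines of collagen and elastin, and the aldehydes that result form the covalent crosslinks which make these fibres insoluble and stiff. Lox and Loxl1 carry a propeptide that is cut off outside the cell, whereas Loxl2, Loxl3 and Loxl4 carry scavenger receptor cysteine-rich domains. In growth plate cartilage the fibres to be crosslinked are mainly of type II and type XI collagen, and hypertrophic chondrocytes add type X collagen.

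The cartilage came from mice of mixed background at postnatal day 28 (P28), day 3 (P3) and day 2 (P2); the labels name no allele or agent. Laser capture of 10-micron sections gave resting zone cells, which divide slowly, proliferative zone cells, which divide in stacked columns, and hypertrophic zone cells, which are swollen and border the bone. Full-length cDNA was made from them by SMART-seq2. Of the 68 libraries, those of xylene-fixed P28 tissue were 4 resting, 5 proliferative and 5 hypertrophic, and those of ethanol-fixed P28 tissue were 8 resting, 9 proliferative and 9 hypertrophic. The others, all ethanol-fixed, were 3 of 1 P3 animal (1 per zone) and, at P2, 9 resting, 8 proliferative and 8 hypertrophic. Animals are lettered here within each age. The labels of P28 animal B and P2 animal D name animals in the plural, so each may be a pool.

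Depth ran from 748 to 3347722 counts per library. The tests used ethanol libraries of at least 100000 counts, summed per animal and zone, which left 3 animals per zone at P28 and 4 per zone at P2. Levels of these sums are TMM CPM, counts per 1000000 after edgeR's TMM scaling, and levels of single libraries are CPM over the library total. Within each age the hypertrophic capture followed the labels by 8 summed hypertrophic markers, Col10a1 and Ihh among them. At P28 they summed to 66430 to 111000 TMM CPM in hypertrophic sums, against at most 8879 in resting and 6930 in proliferative sums. The value of 8879 came from P28 animal A. At P2 they summed to 8436 to 69620 in hypertrophic sums, against at most 421 in resting and 1058 in proliferative sums. Col10a1 dominated the sum, with 99350 of 111000 TMM CPM in P28 animal B. Mmp13 was at 0 in the hypertrophic sums of P2 animals A, D and G and of P28 animal D. No marker list was one of resting or of proliferative cells, but some lists differed between these zones. At P2 the markers of perichondrium and fibroblasts summed to 973 to 6396 TMM CPM in resting and 353 to 971 in proliferative sums. At P28 their ranges overlapped, at 144 to 776 and 759 to 1461. Chondrocyte markers at P28 summed to 50300 to 72980 in resting and 134300 to 222500 in proliferative sums, and at P2 they overlapped. Ribosomal Rn45s took 38.4 to 81.0% of the counts in hypertrophic sums, 8.51 to 38.4% in resting sums and 14.8 to 55.7% in proliferative sums. The resting sum of P2 animal G held both Xist (128 counts) and Y-linked transcripts (747 counts), so it may hold cells of more than 1 animal. One library went against its label. Xylene-fixed hypertrophic replicate 3, from P28 animal D, held 32.9 CPM of Col10a1 and 62780 CPM of Col1a1, the type I collagen chain of bone and fibrous tissue. Values that include it are also given without it.

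On the mm10 build, Loxl4 lies on chromosome 19 (42593982 to 42612813, minus strand), with 4213 bases of merged exons in the GENCODE annotation. Loxl3 lies on chromosome 6 (83034173 to 83052562, plus strand, 4603 exon bases), and Loxl2 on chromosome 14 (69609068 to 69695834, plus strand, 5405 exon bases). Loxl1 lies on chromosome 9 (58287738 to 58313186, minus strand, 3297 exon bases), and Lox on chromosome 18 (52516067 to 52529867, minus strand, 4778 exon bases). Exons of Loxl3 share 535 bases with Htra2 on the other strand. SMART-seq2 does not mark strand, so part of the Loxl3 counts could be reads of Htra2, a gene that had 307 counts over all libraries.

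The window around the start of Loxl4 is shown because the results turn on this gene. It is the RefSeq promoter window of 300 bases (GRCm38.p6, chr19:42612757-42613056, minus strand), 250 bases before the start and 50 after it. Capitals mark GGGCGG, the letters that SP factors are known to bind.

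Loxl4 window: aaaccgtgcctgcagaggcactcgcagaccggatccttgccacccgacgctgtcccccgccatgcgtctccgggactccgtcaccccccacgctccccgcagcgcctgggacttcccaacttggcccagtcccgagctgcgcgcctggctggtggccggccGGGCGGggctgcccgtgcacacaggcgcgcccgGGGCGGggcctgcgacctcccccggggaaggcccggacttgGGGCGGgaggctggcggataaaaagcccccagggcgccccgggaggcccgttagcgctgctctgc

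GGGCGG occurs 3 times in it, with first bases at -89, -56 and -15 from the start, and 35.7% of the 32851 RefSeq windows of this length hold it on either strand. The window is 75% G and C, against a median of 52.67% over all windows. Searched on both strands, it held no TGTGGT (RUNX factors, in 16.8% of windows), ACAAAG (SOX factors, 18.7%), ACGTG (hypoxia-inducible factors, 19.6%), TGANTCA (AP-1, 7.81%), GACCACCCA (GLI factors, 0.253%) or TATAAA (the TATA box, 13.6%). These matches describe letters in the window and no binding.

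Loxl4 was a minor transcript in the resting and proliferative zones and an abundant one in the hypertrophic zone. In the resting zone it had 0, 20.3 and 0 TMM CPM in P28 animals A, B and D. The proliferative zone of the same animals had 32.9, 33.9 and 10.8 TMM CPM, and their hypertrophic zone had 2474, 2004 and 2418 TMM CPM. All 3 hypertrophic values lay above all resting and proliferative values at P28. At P2 the resting zone held 0, 4.54, 10.8 and 0.716 TMM CPM in animals A, D, F and G, and the proliferative zone held 0, 16.6, 6.78 and 10.4 TMM CPM in animals A, D, E and G. The hypertrophic zone at P2 held 958, 86.5, 1685 and 2662 TMM CPM in animals A, C, D and G. The 4 hypertrophic values again lay above every other P2 value. The share of all genes whose ranges do not overlap was not counted at either age. The lowest hypertrophic value, of P2 animal C, rests on 6 counts, in a sum with 7.92% of its reads outside Rn45s, Lars2 and Glra2.

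**Figure D1:**
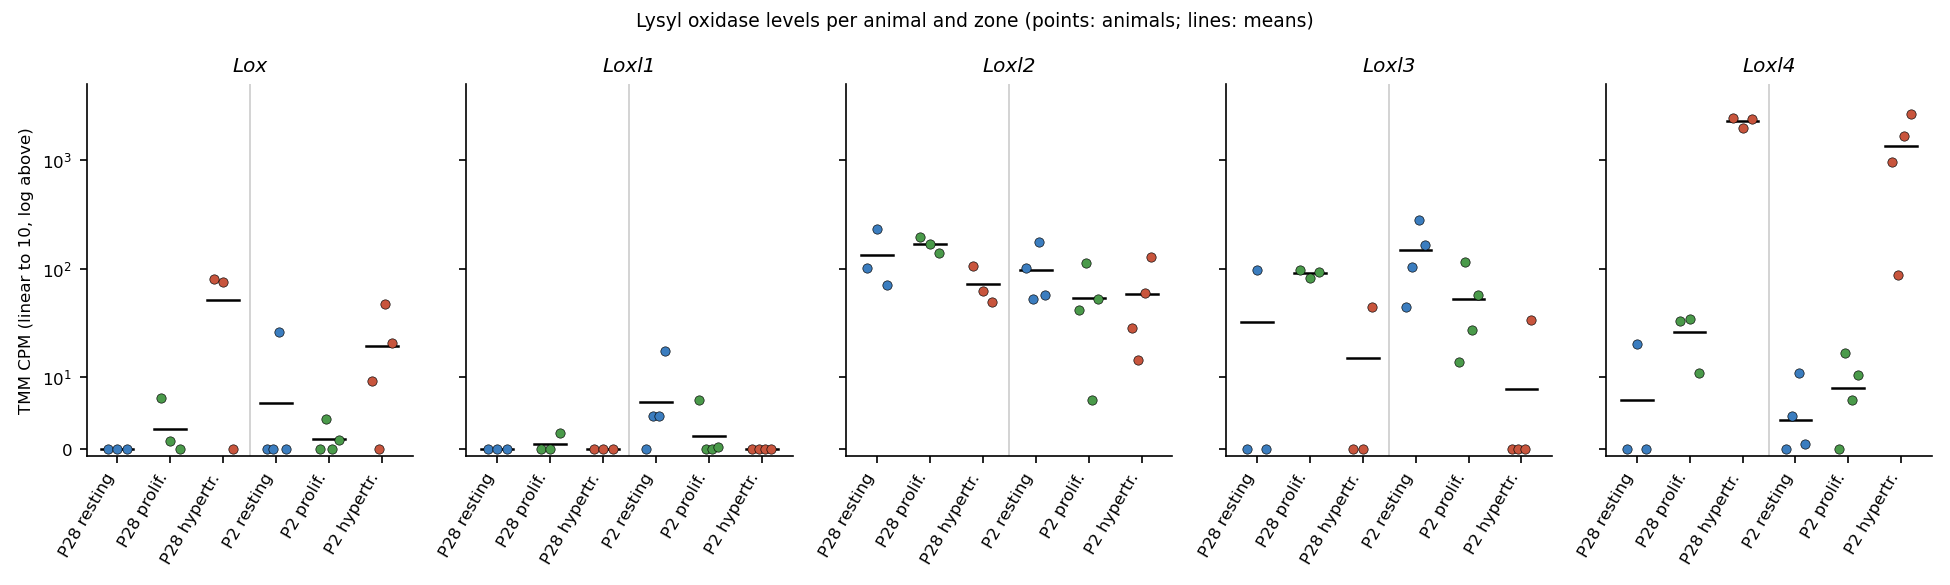
Level of each lysyl oxidase gene in TMM CPM (linear to 10 and logarithmic above) by age and zone; points are animals, lines are means, and P28 stands left of P2. Loxl4 sits at 86.5 to 2662 in the 7 hypertrophic sums and at 33.9 or lower in the other 14, while Loxl1 is at 0 in all hypertrophic sums.

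Within single animals the Loxl4 level of the hypertrophic zone was 75.2 times that of the proliferative zone in P28 animal A (95% interval 44.1 to 139), 59.1 times in B (41.0 to 88.3) and 224 times in D (95.6 to 691). At P2 it was 102 times higher in animal D (62.1 to 179) and 255 times higher in animal G (182 to 369). In P2 animal A, with 0 proliferative counts, it was at least 46.7-fold higher, taking 3 counts as the limit that 0 allows. Against the resting zone the ratio was 98.8 in P28 animal B and at least 156 and 207 in A and D. It was 371 in P2 animal D, 3719 in G and at least 117 in A. The intervals are exact and cover counting error only; reads without molecular identifiers are not independent molecules. In edgeR's fit over all animals the log2 fold change of hypertrophic over proliferative zone was 6.71 ± 0.88 at P28 and 7.81 ± 0.94 at P2 (SE). That of hypertrophic over resting zone was 8.86 ± 1.02 at P28 and 10.37 ± 1.07 at P2. Without P28 animal B, the one with resting Loxl4 counts at that age, the fitted P28 value was 14.23. In captured tissue, more cells with Loxl4 and more Loxl4 RNA per cell cannot be told apart.

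**Figure D2:**
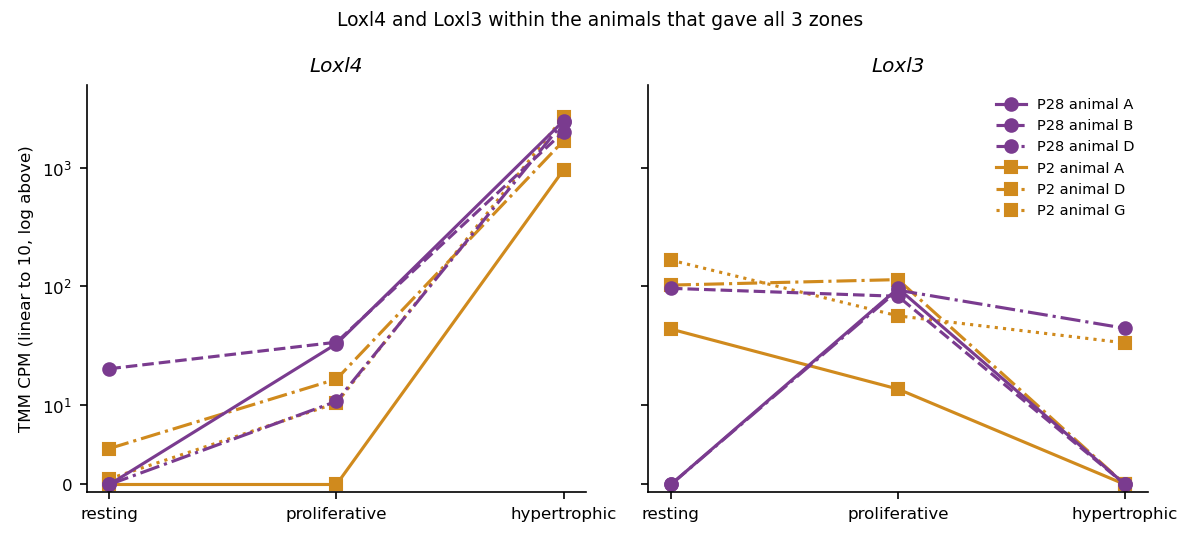
Loxl4 (left) and Loxl3 (right) in TMM CPM (linear to 10, logarithmic above) along the zones of the 6 animals that gave all 3; each line is 1 animal. Loxl4 climbs in the hypertrophic zone of all 6, to between 958 and 2662. The Loxl3 point is lower in the hypertrophic than in the proliferative zone of all 6. In P2 animal A this is 0 against 2 counts, which does not settle the direction.

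Markers of blood and marrow cells ran higher in some hypertrophic than in the proliferative sums, and at P28 also in resting sums. The 7 symbols listed summed to 12.3 to 764 TMM CPM in P2 hypertrophic, 2.08 to 67.8 in P2 proliferative and 2.72 to 21.2 in P2 resting sums. At P28 they summed to 7.40 to 306 TMM CPM in hypertrophic, 2.16 to 21.2 in proliferative and 35.5 to 781 in resting sums. Most of the P2 hypertrophic sum was Beta-s, a beta globin gene of red cells, with 275, 707, 12.3 and 163 TMM CPM in the hypertrophic zone of P2 animals A, C, D and G, against at most 16.9 in any P2 proliferative sum. Ptprc was at 0 in the P2 hypertrophic sums and Lyz2 in those of both ages, while Hba-a1 and Hba-a2 were at 0 in the sums of every zone. The 6 osteoclast markers reached at most 24.1 TMM CPM in hypertrophic sums. The 8 osteoblast and osteocyte markers reached 1629, with Bglap and Bglap2 at 0. The part of these cells in the Loxl4 level was not tested.

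The libraries that were too shallow for the tests are described as well. They were among the libraries by which the family was chosen, so they are no independent support. P28 animal A, which is also in the sums, gave 3 of the 8 hypertrophic ones. Loxl4 was counted in 8 of 8 hypertrophic ethanol libraries under 100000 counts, with 67 counts in all and 22.1 to 1380 CPM. Of these counts 47 came from 1 library of P28 animal A, the other 7 libraries held 20, and 4 libraries held a single count. It was counted in 0 of 10 resting libraries, which together held 528730 counts, and in 0 of 7 proliferative libraries, which together held 264394. In the same libraries all 5 genes together had 72 counts in the hypertrophic (22 without that library), 64 in the resting and 31 in the proliferative zone. Loxl4 thus made up nearly all lysyl oxidase counts of the shallow hypertrophic libraries and none of those of the other zones.

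Between resting and proliferative zone no test separated the Loxl4 levels after adjustment. Resting minus proliferative, the log2 fold change was -2.14 ± 0.90 at P28 (SE, adjusted p = 0.349) and -2.56 ± 0.88 at P2 (adjusted p = 0.378), both by edgeR's quasi-likelihood test over 6958 genes. The resting level was the lower one in all 3 P28 animals and in 2 of the 3 P2 animals with both zones, the third having 0 counts in both. Of the 4 lysyl oxidase genes that passed the filter on low counts in this fit, none was called at either age. The background was 0.561% of all genes called at P28 and 0.259% at P2.

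No test separated the Loxl4 levels of the 2 ages either. In the hypertrophic zone it averaged 2299 ± 257 TMM CPM at P28 (SD, n = 3) and 1348 ± 1093 at P2 (SD, n = 4). The log2 fold change of P28 over P2 was 0.93 ± 0.72 (SE, edgeR adjusted p = 0.998), with overlapping ranges. In the proliferative zone it averaged 25.9 ± 13.1 TMM CPM at P28 (SD, n = 3) and 8.46 ± 6.94 at P2 (SD, n = 4), a log2 fold change of 1.28 ± 1.41 (SE, edgeR adjusted p = 0.998). In the resting zone Loxl4 did not pass the filter, with 4 counts at P28 and 33 at P2. In the order of mean levels, P28 and P2 hypertrophic zone came first and overlapped each other. P28 proliferative, P2 proliferative, P28 resting and P2 resting zone followed in that order, each overlapping the next, with a gap between the hypertrophic values (86.5 or more) and all others (33.9 or less).

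Per kilobase of exon, which lets the 5 genes be compared, Loxl4 made up 95.2 ± 1.4% of the family level in the hypertrophic zone at P28 (SD, n = 3) and 93.8 ± 3.7% at P2 (SD, n = 4). The share ran from 88.5 to 96.9% over the 7 hypertrophic sums, whose depth of informative reads differed widely. In the proliferative zone Loxl4 made up 10.3 ± 4.6% at P28 and 9.04 ± 7.56% at P2, and in the resting zone 2.33 ± 4.03% at P28 and 1.49 ± 1.56% at P2. Loxl2 and Loxl3 held most of the rest of the family there. In the proliferative zone Loxl2 made up 53.8 ± 1.3% at P28 and 38.8 ± 18.8% at P2, and Loxl3 made up 34.6 ± 5.7% at P28 and 47.3 ± 18.01% at P2. In the resting zone Loxl2 took 87.5 ± 21.6% at P28 and 36.5 ± 20.4% at P2. Loxl3 took 10.1 ± 17.5% of the resting family level at P28 and 56.9 ± 15.97% at P2. The resting shares at P28 rest on 106 family counts in all 3 animals. In the P2 proliferative zone animals A and E had 9 and 6 family counts, so that 1 count moves their shares widely. The hypertrophic share of 88.5%, of P2 animal C, rests on 7 family counts.

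**Figure D3:**
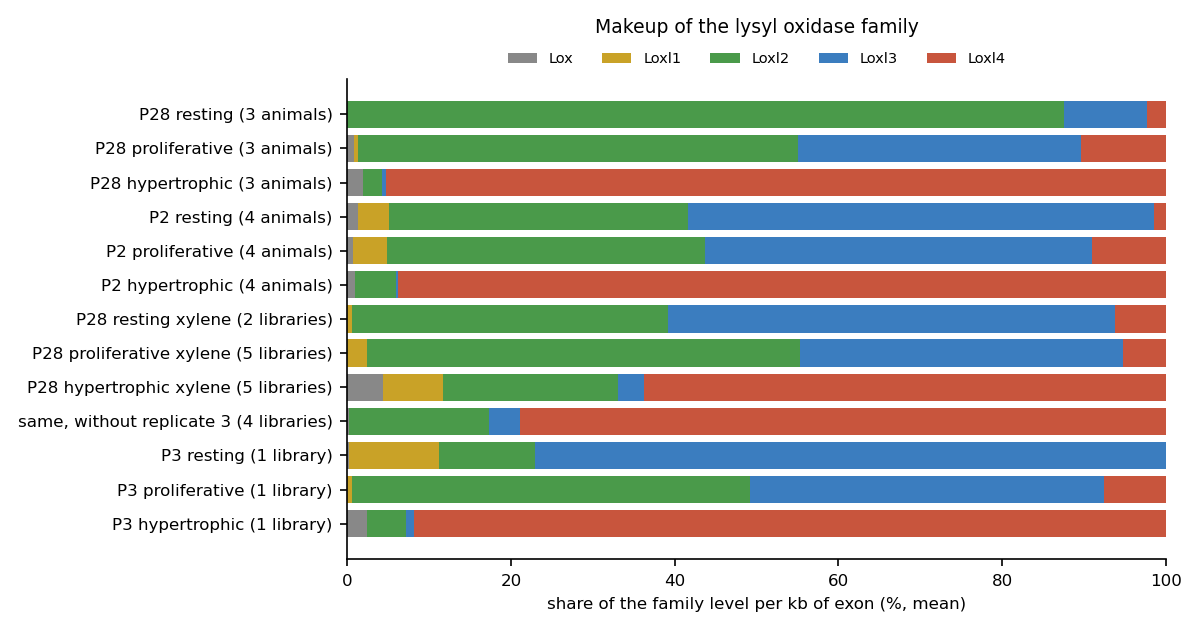
Mean share of each gene in the summed lysyl oxidase level per kilobase of exon (percent, 0 to 100), by group; ethanol P28 and P2 bars are means over animals, xylene and P3 bars are means over libraries with at least 10 family counts. Loxl4 fills 95.2% and 93.8% of the bar in the P28 and P2 hypertrophic zone and 10.3% or less in the resting and proliferative bars of both ages; the xylene-fixed hypertrophic bar has 63.7% over 5 libraries and 78.95% over the 4 without replicate 3.

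Loxl2, which oxidises collagen and is known as a crosslinking enzyme of the collagen IV network, was found in every zone. At P28 it had 100.5, 233 and 70.0 TMM CPM in the resting zone of animals A, B and D, 198, 168 and 138 in the proliferative zone and 104, 62.4 and 49.3 in the hypertrophic zone. The hypertrophic values at P28 all lay below the proliferative ones and overlapped the resting ones. Hypertrophic over proliferative zone, the log2 fold change was -1.26 ± 1.06 (SE), beside a median of -0.52 over all genes. The share of all genes whose ranges do not overlap was not counted. In xylene-fixed P28 libraries Loxl2 overlapped, at 102 to 524 CPM in hypertrophic (102 to 180 without replicate 3) and 35.1 to 282 in proliferative ones. At P2 the means were 96.2 ± 56.6 TMM CPM in the resting, 53.4 ± 44.3 in the proliferative and 57.6 ± 50.8 in the hypertrophic zone (SD, n = 4 each), with overlapping ranges. Resting against proliferative zone gave log2 fold changes of -0.43 ± 1.05 at P28 (SE, edgeR adjusted p = 0.925) and 0.10 ± 1.08 at P2 (adjusted p = 1). Neither passed, and the sign of both depended on the processing.

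With age, Loxl2 was not called in any zone. In the proliferative zone the 3 P28 animals had 138 to 198 TMM CPM and the 4 P2 animals 6.78 to 113. The value of 6.78, of P2 animal E, is 1 count. These ranges did not overlap, but the share of all genes whose ranges do not overlap was not counted. The log2 fold change of P28 over P2 was 1.58 ± 1.07 (SE, edgeR adjusted p = 0.998). The test called 0.679% of 4712 genes in this comparison and none of the 3 lysyl oxidase genes tested. In the resting zone Loxl2 gave 0.65 ± 1.04 (SE, edgeR adjusted p = 0.941) and in the hypertrophic zone 0.45 ± 1.17 (SE, edgeR adjusted p = 0.998), where 0.872% and 0.102% of all genes were called.

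Loxl3, which is known to be needed for palate and spine development in mice, ran lower in the hypertrophic than in the proliferative zone, where Loxl4 ran higher. Hypertrophic and resting Loxl3 overlapped at P28, with 18 and 19 counts (log2 fold change -0.61 ± 1.94 SE). Its resting zone had 43.7, 103, 281 and 166 TMM CPM in P2 animals A, D, F and G, and its proliferative zone had 13.7, 114, 27.1 and 56.5 in P2 animals A, D, E and G. In the P2 hypertrophic zone animal G had 33.4 TMM CPM and animals A, C and D had 0 counts. All 4 hypertrophic values at P2 lay below all 4 resting values. The 0 counts of animals C and A allow up to 43.3 and 28.5 TMM CPM, close to or not far below the lowest resting value. At P28 the resting zone had 0, 96.4 and 0 TMM CPM in animals A, B and D, and the proliferative zone had 96.4, 82.6 and 92.9. The P28 hypertrophic zone had 0, 0 and 44.4 TMM CPM, below all proliferative values at that age. The share of all genes whose ranges do not overlap was not counted for these comparisons. The median log2 fold change of all genes was -0.52 for hypertrophic over resting zone at P2. It was also -0.52 for hypertrophic over proliferative zone at P28.

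In animals with Loxl3 counts in both zones, hypertrophic over proliferative level was 0.478 in P28 animal D (95% interval 0.260 to 0.847) and 0.592 in P2 animal G (0.443 to 0.783). In P2 animal D, with 110 proliferative and 0 hypertrophic counts, the upper end of the interval was 0.081. In P2 animal A, with 2 proliferative and 0 hypertrophic counts, it was 7.385, which does not settle the direction. The log2 fold change of hypertrophic over proliferative zone was -2.99 ± 1.48 at P28 and -2.94 ± 1.53 at P2 (SE). Without P28 animal D or P2 animal G, the animals that hold all hypertrophic Loxl3 counts of their age, these fitted values were -10.38 and -8.19. Loxl3 in the resting against the proliferative zone had log2 fold changes of -2.38 ± 1.56 at P28 (SE, edgeR adjusted p = 0.612) and 0.76 ± 1.25 at P2 (adjusted p = 1). The difference between the ages in this effect was -3.141 ± 2.002 (SE, edgeR adjusted p = 0.796). P28 over P2 gave -1.88 ± 1.53 in the resting zone (edgeR adjusted p = 0.770) and 0.69 ± 1.16 in the proliferative zone (SE, edgeR adjusted p = 0.998). With Rn45s, Lars2 and Glra2 left out, the resting value was -11.72, where the median of all genes stood at -5.86. There 1 P28 animal still reached the minimum depth, D, with 0 Loxl3 counts, so that its spread is assumed to be like that of the P2 animals.

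Lox, the founding enzyme of the family, was low. In the P28 hypertrophic zone it had 80.3, 74.9 and 0 TMM CPM in animals A, B and D, against 0 counts in the resting zone of all 3 and 7.05, 1.13 and 0 TMM CPM in the proliferative zone. In the P2 hypertrophic zone it had 9.49, 0, 46.8 and 20.5 TMM CPM in animals A, C, D and G. Its P2 proliferative level was at most 4.15 TMM CPM. Lox was thus counted in 5 of 7 hypertrophic sums, and its level there was above that of the other zones of the same animal in all 5, by 1 count in P2 animal A. The counts are few, 34 and 63 over the hypertrophic sums at P28 and P2.

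In the P2 resting zone all 57 Lox counts came from animal F (25.7 TMM CPM), an animal with no other zone in the fit. The fitted log2 fold change of resting over proliferative zone was therefore -3.77 ± 1.89 (SE, edgeR adjusted p = 1), although the resting mean, 6.43 ± 12.9 TMM CPM, stood above the proliferative mean, 1.34 ± 1.96 (SD, n = 4 each). At P28 the same comparison, 0 against 4 counts, gave an adjusted p of 0.748 by edgeR. P28 over P2 in the hypertrophic zone gave 0.63 ± 1.60 for Lox (SE, edgeR adjusted p = 0.998). None of the 3 lysyl oxidase genes tested in that zone was called.

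Loxl1, best known for elastic fibre upkeep, did not pass the filter and was tested nowhere. It had 0 counts in all 7 hypertrophic sums, which allows at most 7.40 TMM CPM in P28 animal D and 1.43 in P2 animal G, the deepest of each age. The P2 resting zone had 111 counts, of which 96 came from animal G (17.2 TMM CPM), 10 from F (4.52) and 5 from D (4.54). Proliferative sums had 1 count at P28 and 2 at P2, and the P28 resting zone had 0. The markers of perichondrium and fibroblasts, which surround the cartilage, summed to 973 to 6396 TMM CPM in the P2 resting sums and 144 to 776 in the P28 ones. Their part in the Loxl1 counts was not tested.

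Xylene-fixed P28 libraries and the P3 animal, which entered no test, showed Loxl4 in the same zone. They too were among the libraries by which the family was chosen, so they are no independent support. The 5 xylene-fixed hypertrophic libraries had 231, 256, 30.6, 2120 and 3465 CPM, the third being the library that goes against its label. The 5 proliferative ones had 36.3, 1.73, 14.7, 21.4 and 0 CPM, and the 4 resting ones 0, 37.3, 23.3 and 4.75 CPM, of which 37.3 is 1 count. The hypertrophic median was 256.5 CPM with the odd library and 1188 CPM without it. Without it the xylene-fixed hypertrophic values all lay above the proliferative and resting ones, and with it they overlapped. In the P3 animal Loxl4 had 0 CPM in the resting, 30.1 in the proliferative and 3011 in the hypertrophic zone. Loxl4 made up 91.8% of the P3 hypertrophic family level per kilobase.

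P28 animal D is the animal that carries both fixations. Its xylene-fixed hypertrophic libraries had 231, 256, 30.6 and 2120 CPM of Loxl4, and its ethanol-fixed ones 10.6 and 705 CPM. The value of 30.6 is of the library that goes against its label, and without it the xylene-fixed values ran from 231 to 2120 CPM. The ethanol-fixed library with 10.6 CPM had 13080 of its 753525 counts outside Rn45s, Lars2 and Glra2. The ranges of the fixations overlapped with and without the odd library, and with 1 animal a fixation effect was not tested. Xylene-fixed proliferative libraries of the animal had 1.73 to 36.3 CPM and ethanol-fixed ones 3.26 and 9.94.

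The library labelled xylene-fixed hypertrophic replicate 3 also held a different mix of the family. It had 253 CPM of Lox, 308 CPM of Loxl1 and 524 CPM of Loxl2, against 15.7 CPM of Loxl3 and 30.6 CPM of Loxl4. Loxl4 made up 2.86% of its family level per kilobase, Loxl2 38.1% and Loxl1 36.8%. In the other 4 xylene-fixed hypertrophic libraries Lox reached at most 27.6 CPM and Loxl1 at most 1.23 CPM, and Loxl4 made up 63.2 to 96.3% of the family. The same library held 3680 CPM of Dcn, decorin, a proteoglycan of fibrous tissue, against 73.2 to 204 CPM in the others.

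Loxl4 was also set against Col10a1, which encodes type X collagen, library by library. In the 15 hypertrophic libraries with at least 100 Col10a1 counts there were 12.9 to 93.9 Loxl4 counts per 1000 Col10a1 counts, with a median of 33.6. The ratio needs no scaling between libraries. Outside the hypertrophic zone it did not hold evenly. The resting library of P28 animal A that gave the high marker sum had 1542 Col10a1 counts and 0 Loxl4 counts, which allows at most 2.40 Loxl4 per 1000 (exact 95% interval). Xylene-fixed proliferative replicate 5 had 562 Col10a1 and 0 Loxl4 counts, at most 6.58 per 1000. At P2 the proliferative zone of animals D and G had more Loxl4 than Col10a1, with 16 against 7 counts in D and 34 against 10 in G. Other proliferative libraries with at least 100 Col10a1 counts had ratios in or nearer the hypertrophic range. Those of ethanol-fixed P28 animals A and B had 12.15, 5.597, 42.94 and 10.24 Loxl4 per 1000, and xylene-fixed replicate 4 had 10.33. The P3 proliferative library lay above that range, at 157.3. Resting and proliferative libraries thus also included both Col10a1 without Loxl4 and Loxl4 above Col10a1.

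**Figure D4:**
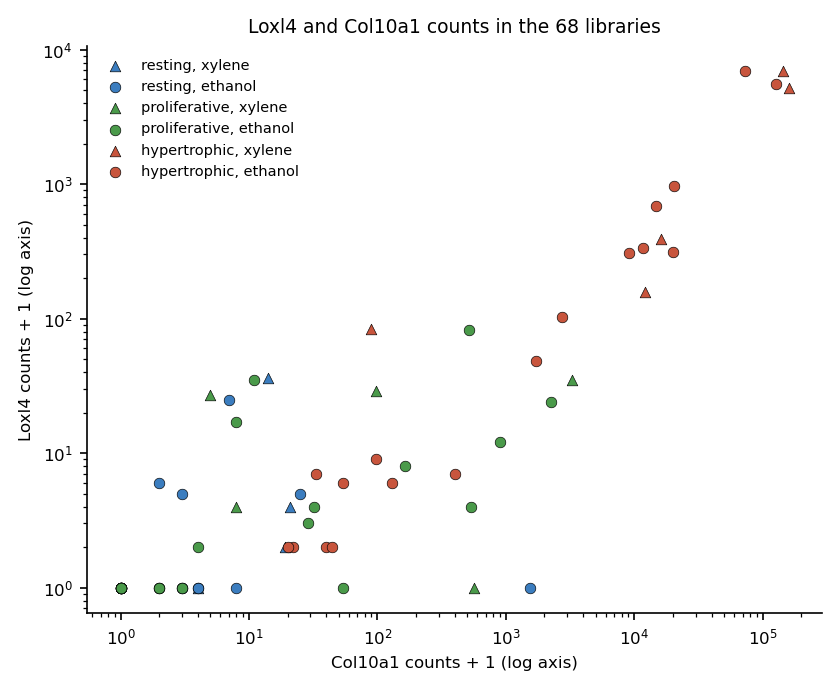
Loxl4 counts against Col10a1 counts, each plus 1 on a log axis, in the 68 libraries, coloured by zone, with triangles for xylene and circles for ethanol fixation. The 15 hypertrophic libraries with at least 100 Col10a1 counts run along a band of 12.9 to 93.9 Loxl4 per 1000 Col10a1 counts. Of the hypertrophic libraries with fewer, the odd xylene-fixed one at 82 and 88 counts lies above it. So do P2 ethanol replicate 6 (187.5 per 1000, 6 against 32 counts) and P28 ethanol replicate 4 (94.34, 5 against 53 counts). A resting library with 1542 Col10a1 counts lies on the floor.

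The 5 tested genes whose level followed Loxl4 most closely, by Pearson's r of log2 TMM CPM over 21 sums that share animals and depth, were Irx5 (0.925), Cds1 (0.918), Pla2g16 (0.917), Ihh (0.914) and Ddit4l (0.905). By Spearman's rho Ihh was 0.911, and 1 of these 5 genes was also among the first 5 by rho. Ihh is Indian hedgehog, the signal of prehypertrophic and hypertrophic chondrocytes. It averaged 224 ± 146 TMM CPM in the P28 hypertrophic zone, against 52.1 ± 38.1 in the P28 proliferative and 0 counts in the P28 resting zone (SD, n = 3 each). Irx5, a homeobox transcription factor, averaged 255 ± 101 TMM CPM in the P28 hypertrophic zone, with 2 counts in the proliferative and 0 in the resting zone. For the other members the closest genes were Hspb8 (Lox, r = 0.831), Slc41a1 (Loxl2, r = 0.799) and Ndufa4l2 (Loxl3, r = 0.839). Among the members, Lox and Loxl4 had r = 0.712, Loxl2 and Loxl3 0.395, Loxl3 and Loxl4 -0.373, and Loxl2 and Loxl4 -0.0316. All these values describe these 21 sums.

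The rest of the crosslinking pathway was followed through 70 genes in 7 lists, of which 52 passed the filter in the zone fit. Hypertrophic against proliferative zone, edgeR called 2 of them higher and 2 lower at P28, where 1.12% of all genes were called, and 4 higher and 4 lower at P2, where 2.31% were. Hypertrophic against resting zone, 1 was higher and 1 lower at P28 (background 1.77%), and 5 were higher and 6 lower at P2 (background 3.77%). Resting against proliferative zone, 1 was higher and 2 were lower at P28 (background 0.561%), and 1 was higher and 0 lower at P2 (background 0.259%). P28 against P2, 1 of 42 tested was higher in the resting zone (background 0.872%), 4 of 41 in the proliferative zone (0.679%) and 0 of 30 in the hypertrophic zone (0.102%), with none lower. All 34 calls kept their direction in every alternative that gave them a value, and 4 also stayed past the threshold in all: Fmod lower in the hypertrophic zone at P2 against either zone, F13a1 higher there against the resting zone, and Col10a1 higher at P28 than at P2 in the proliferative zone.

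The enzymes that act on collagen inside the cell, before a lysyl oxidase can, were lower in the hypertrophic zone wherever they passed the test. Of the 8 genes of lysine hydroxylation and glycosylation, Plod2 was called. This lysyl hydroxylase acts on the telopeptides, where crosslinks start. It averaged 88.2 ± 101 TMM CPM in the P2 hypertrophic and 910.4 ± 421.5 in the P2 proliferative zone (SD, n = 4 each; log2 fold change -2.74 ± 0.73 SE, edgeR adjusted p = 0.0143). The median of this list was -1.66 at P28 and -1.01 at P2 in log2 hypertrophic over proliferative, beside -0.52 and -0.36 over all genes. Of the 10 genes of prolyl hydroxylation and folding, P4ha3, a prolyl hydroxylase subunit, had 0 hypertrophic and 1598 proliferative counts at P2, at least 316-fold lower over the group. Of the proliferative counts 1429 came from animal G, and without it the bound was 26.01-fold. Fkbp14, a folding enzyme, was lower against both zones at P2. Serpinh1, the collagen chaperone HSP47, averaged 702 ± 401 TMM CPM in the P28 hypertrophic zone, against 3577 ± 1527 in the P28 proliferative zone (SD, n = 3 each; log2 fold change -2.50 ± 0.64 SE, edgeR adjusted p = 0.0137). It was also lower in the P28 resting zone, at 624.8 ± 397.9 TMM CPM (SD, n = 3; log2 fold change over the proliferative zone -2.54 ± 0.65 SE, edgeR adjusted p = 0.0236), a call that held in 8 of 17 alternatives.

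Of the 10 genes that process procollagen or activate lysyl oxidase, 5 were tested and Fn1 was called. Fn1 is fibronectin, known as a scaffold for Lox and its activating protease. It averaged 2727 ± 765 TMM CPM in the P28 hypertrophic and 2537 ± 846 in the P28 resting zone, against 378 ± 130 in the P28 proliferative zone (SD, n = 3 each). The log2 fold change of hypertrophic over proliferative zone was 2.89 ± 0.63 at P28 (SE, edgeR adjusted p = 0.00164) and 3.55 ± 0.67 at P2 (adjusted p = 3.38e-05). Of the 7 genes of copper uptake and delivery, 4 were tested and none was called in any comparison.

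Among the 13 elastic fibre genes, of which 8 were tested, Efemp2 was higher and Mfap2 lower in the hypertrophic than in the resting zone at P2, and Fbn1 was lower at P28. Efemp2 is fibulin 4, which is known to bind Lox. It averaged 509.8 ± 288 TMM CPM in the P2 hypertrophic and 148 ± 97.6 in the P2 resting zone (SD, n = 4 each; log2 fold change 2.65 ± 0.83 SE, edgeR adjusted p = 0.0419). Mfap2, a microfibril protein, had 0 hypertrophic and 1613 resting counts at P2, at least 155-fold lower over the group and at least 32.7-fold lower without animal G.

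Collagens, the substrates, were called in both directions. Of 12 collagens tested, Col5a2 and Col10a1 were higher in the hypertrophic than in the proliferative zone at P2. Col5a2, a chain of the fibrillar type V collagen, averaged 325 ± 262 and 8.45 ± 9.36 TMM CPM there (SD, n = 4 each; log2 fold change 6.11 ± 1.24 SE, edgeR adjusted p = 0.000205). Col3a1 was higher in the P2 resting zone than in the P2 proliferative zone, at 386 ± 341 and 9.59 ± 17.2 TMM CPM (SD, n = 4 each). Col3a1 is also 1 of the 8 perichondrium and fibroblast markers, which summed to 973 to 6396 TMM CPM in the P2 resting and 353 to 971 in the P2 proliferative sums, and their part in the difference was not tested. Col1a2, a type I collagen chain and also on that list, was lower in the hypertrophic than in the resting zone at P2, at 255 ± 379 and 1076 ± 739 TMM CPM (SD, n = 4 each; log2 fold change -3.35 ± 0.85 SE, edgeR adjusted p = 0.00565). Col11a1, a chain of type XI collagen, was lower in the P28 resting than in the P28 proliferative zone by edgeR's test (log2 fold change -1.70 ± 0.42 SE, adjusted p = 0.0226), in 8 of 17 alternatives. With age, Col10a1, Col2a1 and Col11a1 were higher at P28 than at P2 in the proliferative zone. The Col11a1 call with age held in 2 of 13 alternatives. Col2a1, the main fibril collagen of cartilage, had a log2 fold change of 1.62 ± 0.26 there (SE, edgeR adjusted p = 2.29e-07).

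Of 5 other crosslinkers and modulators tested, F13a1 was higher and Fmod lower in the hypertrophic than in the proliferative zone at both ages, F13a1 at P28 in 8 of 17 alternatives. F13a1 is the transglutaminase chain of coagulation factor XIII. It had 377, 278 and 306 TMM CPM in the hypertrophic zone of P28 animals A, B and D, against 14.1, 33.9 and 0 in their proliferative zone (log2 fold change 4.11 ± 1.13 SE, edgeR adjusted p = 0.0307). At P2 the change was 5.69 ± 1.39 (SE, edgeR adjusted p = 0.00511). F13a1 also had 68.8, 40.6 and 1193 TMM CPM in the P28 resting zone, against 0 counts in the P2 resting zone, and was called with age there. Macrophages are known to express this gene as well, and blood and marrow markers reached 781 TMM CPM in the resting sum of P28 animal D, the one with 1193 TMM CPM of F13a1. Their part was not tested. Fmod, fibromodulin, binds collagen near crosslink sites and is known to modulate Lox. It fell by 2.77 ± 0.62 at P28 (edgeR adjusted p = 0.00253) and by 4.49 ± 0.71 at P2 (adjusted p = 1.75e-07) on the log2 scale, hypertrophic against proliferative zone (SE).

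**Figure D5:**
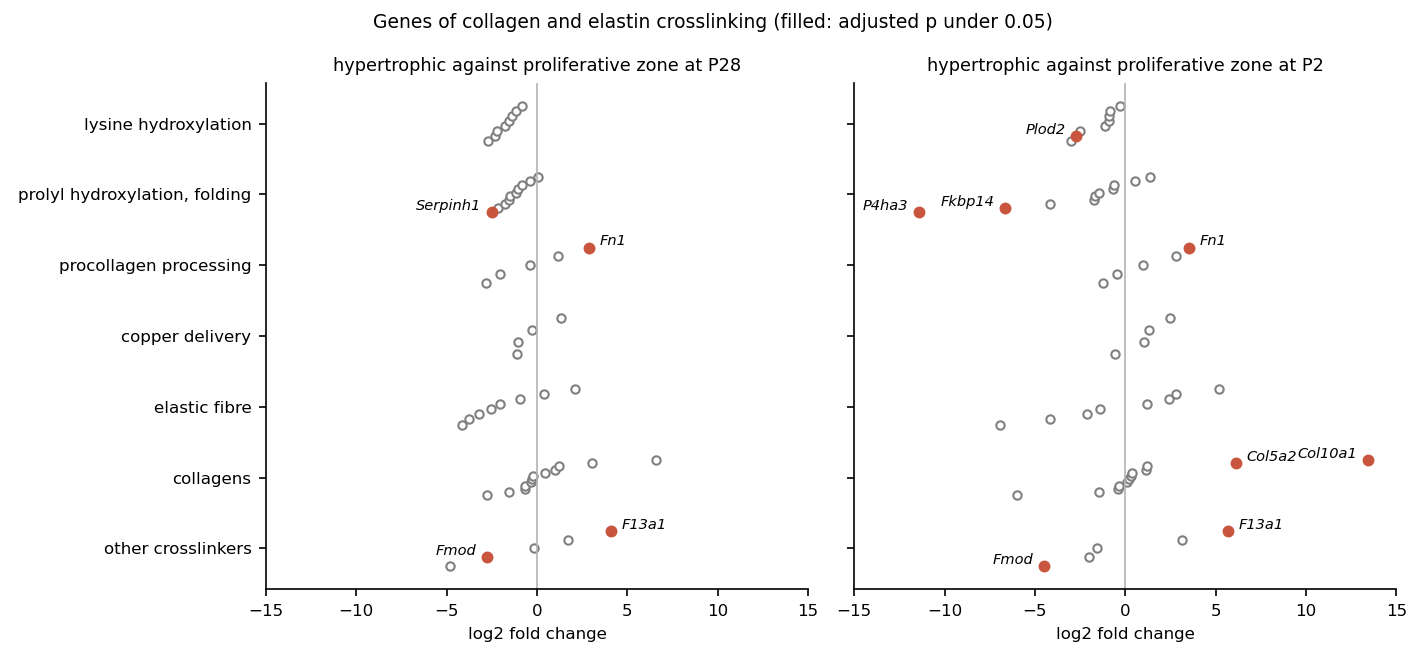
Log2 fold change of hypertrophic over proliferative zone for the tested genes of 7 lists of collagen and elastin crosslinking, at P28 (left) and P2 (right); each point is a gene, and filled points passed an adjusted p of 0.05 in edgeR's test. Fn1 and F13a1 lie to the right and Fmod to the left at both ages, and the filled genes of the hydroxylation and folding lists all lie to the left.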

How the data were processed

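Reads were counted per gene symbol, and the authors deposited whole-number counts, not normalized. The tools named are featureCounts 1.5.3, Subread, cutadapt and STAR 2.5.2b, and the build is mm10, per the submitters' processing notes. Their annotation, strand setting and treatment of multi-mapped reads are unstated in the labels. Of the 68 libraries, 32 had 2 columns under 1 title, which were summed as repeat runs.

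Ethanol-fixed P28 and P2 libraries with at least 100000 counts (26 of 51) gave 21 sums, 1 for each animal and zone. In R 4.3.3, edgeR 4.0.16 was used with TMM scaling, filterByExpr, robust quasi-likelihood tests and Benjamini-Hochberg adjustment over all genes tested, with a threshold of 0.05. Zones came from 1 fit with the animal as a block (8 residual degrees of freedom, 6958 genes). Ages came from 1 fit per zone with the deposit set, told apart by whether libraries carry a coded description, as a term (4 residual degrees of freedom). The labels tie zones to animals, and deviations from group means correlated by -0.00358 to 0.187 within animals. Animal labels that differ in a suffix were counted as 1 animal. Each SE is the size of the log2 fold change divided by the root of its F statistic. The dispersion of a gene is moderated by that of the others, and p-values rest on the spread between these animals. Intervals are exact at 95%. Sequence windows are from RefSeq, where 1 of the 5 members matched, and gene models are GENCODE's. Of the 70 pathway genes all matched, 6 through older symbols.

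The members and gene lists were chosen with earlier results of these data known. The genes named are the 5 members, pathway genes past the threshold, and the 5 (Loxl4) or 3 (other members) tested genes with the highest r. The fits were tested on simulated data. Alternatives were RLE scaling, no filter on low counts, DESeq2 1.42.0, no replicate block or deposit set, a minimum of 50000 counts, no Rn45s, Lars2 and Glra2, each animal label as its own animal, and leaving out each animal.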

Additional observations from a re-analysis of the deposited data

Results flagged for a closer look

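In 27 groups of 4 to 10 values of 1 gene, 8 held a highest value set apart from the others by Dixon's 95% criterion. That criterion assumes normally distributed values, and a group of 0s with 1 other value always meets it. The number of groups found therefore cannot be compared with a chance rate. Among the sums these were Lox in P2 resting animal F (25.74 TMM CPM, the others at 0), Loxl1 in P2 proliferative animal A (6.839 TMM CPM, which is 1 count) and Loxl3 in P2 hypertrophic animal G (33.44 TMM CPM, the others at 0). Among xylene-fixed libraries, hypertrophic replicate 3, which goes against its label by its markers, stood apart with 253.1 CPM of Lox, 308.4 CPM of Loxl1 and 524.1 CPM of Loxl2. Hypertrophic replicate 4 stood apart with 92.9 CPM of Loxl3. Resting replicate 3 stood apart with 1.998 CPM of Loxl1, which is 3 counts. The others were at 0, among them libraries of 3237 and 26806 counts in all.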

How the results depend on the processing

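No lysyl oxidase gene passed the test in any alternative but 1, out of 239 tested values: Loxl3 with age in the resting zone, -11.72 (adjusted p = 0.030) without Rn45s, Lars2 and Glra2. Without these 3 symbols fewer libraries reached the minimum depth. In the resting zone 1 P28 animal was left, D, with 0 Loxl3 counts, its spread assumed to be like that of the other groups. The Loxl4 log2 fold change stayed positive over 18 fits each, at 5.97 to 7.07 (P28) and 7.09 to 8.49 (P2) for hypertrophic over proliferative zone and at 7.77 to 14.23 (P28) and 8.23 to 11.84 (P2) for hypertrophic over resting zone. Some values changed sign, and the cause was not tested. Loxl3, hypertrophic over resting zone at P28 (-0.61), was 7.43 without P28 animal B, which held all 19 resting counts. It was -8.49 without D, which held all 18 hypertrophic counts, and 8.19 without the 3 symbols. Resting over proliferative zone, these were Lox at P2 (-3.77) without the replicate block (1.808), Lox at P28 (-4.06) without Rn45s, Lars2 and Glra2 (4.126), Loxl2 at P28 with RLE scaling (0.1856), and Loxl2 at P2 with a minimum of 50000 counts (-0.0203), without the 3 symbols (-0.6541) and with single animals left out (-0.5867 to 0.8336). P28 over P2, they were Loxl2 in the resting zone without the 3 symbols (-0.8146) and with single animals left out (-0.03626 to 1.106), and Lox (-1.507) and Loxl2 (-0.3022) in the hypertrophic zone without the 3 symbols. The median of all genes, resting over proliferative zone at P28, was -0.81 with TMM and -0.24 with RLE scaling. For hypertrophic over resting zone at P28 it was 0.27 and -0.12.

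Counts of called genes moved more. Resting against proliferative zone at P2, 18 genes (7 higher) became 12 (1 higher) with RLE scaling, 11 without the replicate block, 29 without the 3 symbols and 37 with DESeq2. At P28, 39 became 2 without the block, 18 with RLE scaling (12 higher and 6 lower, against 10 and 29), 14 without the filter, 4 at 50000 counts, 254 without the 3 symbols, 70 with each label as an animal and 152 with DESeq2. Hypertrophic against proliferative zone at P2, 161 became 89 without the filter and 313 with DESeq2. At P28, 78 became 9 without the block, 48 without the filter, 21 at 50000 counts, 141 with each label and 215 with DESeq2. Hypertrophic against resting zone at P2, 262 became 165 without the filter and 426 with DESeq2. At P28, 123 (85 higher) became 40 without the block, 64 without the filter, 46 at 50000 counts, 264 without the 3 symbols and 351 with DESeq2, and 101 (47 higher) with RLE scaling. With age, 29 resting genes became 62 without the filter, 207 without the 3 symbols and 112 with DESeq2. The 32 proliferative genes became 13 without the filter, 54 without the deposit set, 4 at 50000 counts and 17 without the 3 symbols, and with RLE scaling 35 (14 higher, against 20). The 2 hypertrophic genes became 1 without the filter, without the deposit set and at 50000 counts, 11 without the 3 symbols and 17 with DESeq2.

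Leaving out 1 animal moved the P2 counts, in the same order, to 5 to 39 (5 without D or G, 39 without P28 animal D), 28 to 309 (75 without A, 32 without D, 28 without G, and 106 and 309 without animals B and D of P28) and 54 to 430 (163 without A, 60 without D, 54 without G, 430 without P28 animal D). At P28 it gave 5 to 39 (17 without A, 5 without B, 18 without D, 10 without P2 animal D), 18 to 80 (18 without A or B, 41 without D, 45 without P2 animal D) and 28 to 129 (62 without A, 28 without B, 53 without D, 73 without P2 animal D). With age it gave 13 to 68 in the resting zone (68, 14, 19 and 13 without P2 animals A, D, F and G), 6 to 49 in the proliferative zone (every animal moved it) and 1 to 2 in the hypertrophic zone. Leaving out the shallow hypertrophic library of P28 animal D, chosen after seeing the data like the odd xylene-fixed library, moved no count by over 1.5 times. The first genes by Spearman's rho included 1 of 5 genes nearest Loxl4, 0 of 3 for Lox and Loxl3 and 1 of 3 for Loxl2. Depth limits Lox, Loxl1 and all resting values at P28, where 3 counts are 11.7 to 15.9 TMM CPM.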
